A study of Mus musculus with 6 samples.

Results

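The 41 genes described here mark macrophages and leukocytes in general. They were chosen by name, as a list of genes for leukocyte membrane proteins, signalling proteins, transcription factors, the phagocyte oxidase, and macrophage and dendritic cell markers. Of the 41, 40 were measured, among 18193 genes with a probe set that names 1 gene, and they had 71 probe sets. Lyn was not analysed here.

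Leukocytes carry a shared kit of genes that fibroblasts largely lack. The membrane phosphatase CD45 and adaptors with tyrosine activation motifs start signals, kinases and guanine exchange factors pass them on, and actin-bundling proteins and small GTPases move the cell. Phagocytes add a membrane NADPH oxidase that makes superoxide after cytosolic subunits join it. Tissue macrophages, which are resident in normal dermis and increase in inflamed skin, also carry scavenger and lectin receptors, and Langerhans cells of the epidermis carry langerin.

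The arrays, Affymetrix chips for the mouse transcriptome, hold 3 samples of cancer-associated fibroblasts (CAF) and 3 of normal dermal fibroblasts (NDF). The CAF came from the visibly dysplastic ears of male K14-HPV16 mice, in which the keratin 14 promoter drives papillomavirus 16 genes in basal keratinocytes, so the dermal cells studied are not the cells that the promoter targets. The NDF came from the ears of age-matched male non-transgenic FVB/n mice. The labels give HPV16 as the strain of the CAF mice and name no background strain for them, so a strain difference and the transgene cannot be told apart here. All mice were 4 months old, cells of both groups were sorted for the surface receptor PDGFRα, and the protocol names 15 mice per genotype without saying how they were divided among the repetitions. The p-values therefore measure the spread between these samples, which may in part be technical. No batch was given in the labels.

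Values are log2 intensities after RMA, an array summary that compresses low signals, and the 6 array medians lay between 4.73 and 4.87. CAF replicate 3 stood apart, with Pearson correlations of 0.914 to 0.932 to the other arrays over all probe sets, where the other pairs reached 0.960 to 0.983. The sort marker Pdgfra averaged 12.54 ± 0.11 in CAF and 12.46 ± 0.15 in NDF (SD, n = 3 each), a difference of 0.08 (limma adjusted p = 0.957). The 16 fibroblast markers had mean levels of 11.21 to 11.59 on CAF arrays and 11.48 to 11.58 on NDF arrays, so both groups carried the labelled cell type's genes. Of the 16, 13 had lower means in CAF, with a median difference of -0.24. By limma, 3 were lower and 1 higher in CAF at an unadjusted p under 0.05, against 4.02% and 4.93% of all genes. On the same arrays the 14 measured neutrophil markers averaged 6.51 to 7.38 in CAF and 4.36 to 4.93 in NDF, and the 6 B cell markers 3.58 to 4.03 in CAF and 3.70 to 3.87 in NDF. The 15 keratinocyte markers averaged 8.0 to 9.3 on CAF arrays and 6.9 to 7.1 on NDF arrays, and the 13 endothelial markers 6.79 to 7.78 on CAF arrays and 5.60 to 5.86 on NDF arrays. By limma, 2 of the keratinocyte and 1 of the endothelial markers were higher in CAF at an adjusted p under 0.05, against 0.489% of all genes. The part of neutrophils, which carry many of the genes below, or of the other cells in these results was not tested. In such sorted bulk samples, more cells of a type and more RNA per cell cannot be told apart.

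Macrophage and pan-leukocyte genes were mostly higher in CAF than in NDF. Of the 40 genes, 7 rose and none fell at an adjusted p under 0.05 (limma, Benjamini-Hochberg over all genes), against 0.489% of all genes called higher and 0.0275% called lower. By the unadjusted p, 28 lay under 0.05 with CAF higher and none with CAF lower, against 4.93% and 4.02% of all genes. Every CAF array exceeded every NDF array for 29 genes, against 6.78% of all genes, and for none of the 40 was every CAF array below, against 8.66%. The median difference was 1.76 log2 units, beside -0.04 over all genes. The mean level of the 40 genes was 6.10, 6.66 and 7.18 on the CAF arrays in replicate order and 5.04, 4.38 and 4.59 on the NDF arrays, so the groups did not overlap on this mean. The 7 that rose were Ptprc, Cd52, Cd53, Tyrobp, Plek, Ikzf1 and Ms4a6d, of which Ms4a6d is in the macrophage groups and the others are shared among leukocytes. None of the 7 passed the threshold without NDF replicate 1, 2 or 3, where 11, 8 and 5 of all genes passed, and without CAF replicate 2 only Ms4a6d, Ptprc and Tyrobp of the 7 passed. Their differences stayed between 2.41 and 4.64 whichever array was left out.

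**Figure D1:**
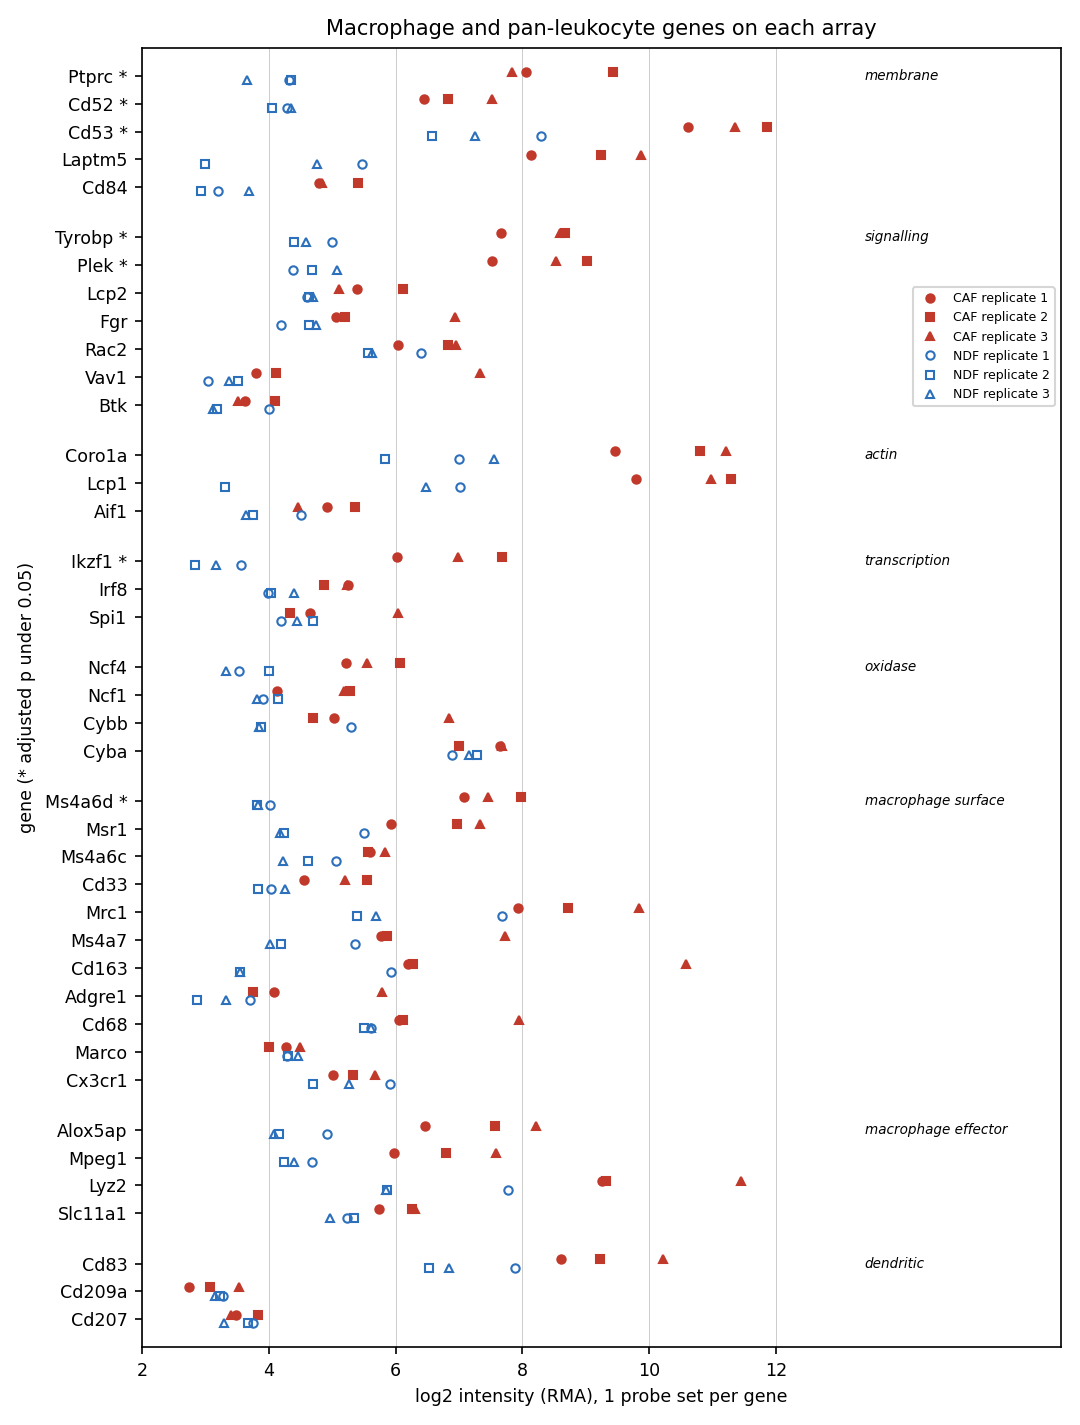
Log2 intensity of 40 genes on each array, 1 probe set per gene, with genes down the page by role. Filled red symbols are CAF arrays, open blue symbols NDF arrays, and an asterisk marks the 7 genes with an adjusted p under 0.05. The CAF symbols of Ptprc lie between 7.83 and 9.44 and its NDF symbols between 3.65 and 4.36.

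Of 5 genes for membrane proteins of all leukocytes 3 rose, and the median difference was 3.91. Averaging the probe sets of each gene gave a median of 2.05. Ptprc encodes CD45, the receptor phosphatase that sets the activity of Src family kinases. It read 8.06, 9.44 and 7.83 on the CAF arrays, against 4.32, 4.36 and 3.65 on the NDF arrays. The lowest CAF array was 3.47 above the highest NDF array, the widest gap of the 40 genes. The difference was 4.33 ± 0.45 (SE), 20.2-fold on this scale (adjusted p = 0.0197). The other probe set of Ptprc differed by 0.89, and the mean of both by 2.61 (adjusted p = 0.0549). With probe sets ending in _a_at, _s_at or _x_at left out, that other probe set stands for the gene (adjusted p = 0.702).

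Cd52, a small glycoprotein of lymphocytes and myeloid cells, read 6.45, 6.82 and 7.52 on CAF arrays, against 4.28, 4.05 and 4.34 on NDF arrays. It rose by 2.71 ± 0.30 (adjusted p = 0.0234), and it has 1 probe set. The tetraspanin gene Cd53 read 10.61, 11.86 and 11.36 on CAF arrays and 8.29, 6.57 and 7.25 on NDF arrays, so its normal samples were spread over more than 1 unit. It rose by 3.91 ± 0.50 (adjusted p = 0.0349), whereas its other probe set lay near the floor of the arrays and differed by 0.19. The mean of both Cd53 probe sets differed by 2.05 (adjusted p = 0.0694), and without CAF replicate 3 the adjusted p was 0.0501.

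Laptm5, a lysosomal protein gene of blood cells, and Cd84, an adhesion receptor of the SLAM family, did not pass the threshold. Laptm5 had a difference of 4.68 ± 0.71 (adjusted p = 0.0548), and its 4 other probe sets differed by 2.04, 1.83, 0.62 and -0.33. The probe set used for Laptm5 and the 3 others above 0 have suffixes that mark matches to more than 1 transcript. Cd84 read 4.79, 5.41 and 4.84 on CAF arrays and 3.20, 2.93 and 3.69 on NDF arrays, with no overlap. Its difference of 1.74 had an adjusted p of 0.0633. The dim probe set of Cd84 gave 0.05.

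Signalling genes were higher in part, with 2 of 7 called and a median of 1.21. Tyrobp encodes DAP12, the adaptor with a tyrosine activation motif that pairs with receptors of myeloid and natural killer cells. It read 7.66, 8.68 and 8.59 on CAF arrays, against 4.99, 4.40 and 4.59 on NDF arrays, and rose by 3.65 ± 0.32 or 12.6-fold (adjusted p = 0.0134). Plek encodes pleckstrin, a substrate of protein kinase C in platelets and leukocytes. It read 7.51, 9.02 and 8.52 on CAF arrays and 4.39, 4.68 and 5.08 on NDF arrays, and rose by 3.64 ± 0.40 (adjusted p = 0.0245). Its 2 other probe sets differed by 3.60 and 1.67, with all CAF arrays above all NDF arrays on each.

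The remaining signalling genes had smaller differences or depended on 1 array. Lcp2, the adaptor SLP-76, differed by 0.90 (adjusted p = 0.353), with 5.11 to 6.12 on CAF arrays and 4.60 to 4.69 on NDF arrays. Fgr, a Src family kinase of myeloid cells, read 5.06, 5.20 and 6.93 on CAF arrays and 4.18, 4.63 and 4.74 on NDF arrays. Its difference was 1.21 (adjusted p = 0.551), and 0.61 without CAF replicate 3. Vav1, a guanine exchange factor of blood cells, read 3.80, 4.11 and 7.33 on CAF arrays against 3.04, 3.52 and 3.37 on NDF arrays. Only CAF replicate 3 was far above the normal samples, and the difference of 1.77 was 0.64 without it (adjusted p = 0.655 and 0.285). The other Vav1 probe set overlapped between the groups, with a difference of 0.0065.

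Rac2, the small GTPase of blood cells that also serves the phagocyte oxidase, differed by 0.74 with overlapping groups (adjusted p = 0.609). The other probe set of Rac2 differed by 2.33 and showed no overlap, with means of 5.77 in CAF and 3.44 in NDF. Btk, the tyrosine kinase of B cells and myeloid cells, had the smallest difference among the signalling genes. It read 3.62, 4.09 and 3.52 on CAF arrays and 4.00, 3.18 and 3.12 on NDF arrays, and the groups overlapped (difference 0.31, 95% interval -0.40 to 1.03, adjusted p = 0.867).

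The 3 actin-binding genes had a median difference of 3.70, or 2.76 with the mean of all probe sets, and none passed. Coro1a encodes coronin 1A, which remodels actin in leukocytes. It read 9.47, 10.80 and 11.21 on CAF arrays, against 7.00, 5.83 and 7.55 on NDF arrays (difference 3.70 ± 0.58, adjusted p = 0.0624). The 2 other Coro1a probe sets differed by 3.85 and 0.72, and without CAF replicate 1 the adjusted p was 0.0472. Lcp1, the leukocyte actin-bundling protein L-plastin, had the largest difference of the 40 genes. It read 9.79, 11.30 and 10.97 on CAF arrays and 7.01, 3.31 and 6.49 on NDF arrays, so NDF replicate 2 lay far below the other normal samples. The difference was 5.08 ± 0.97 (adjusted p = 0.108), and 3.94 without NDF replicate 2. With the mean of its 2 probe sets Lcp1 differed by 4.38 (adjusted p = 0.0485). Aif1, the calcium-binding macrophage protein IBA1, read 4.92, 5.35 and 4.46 on CAF arrays and 4.51, 3.76 and 3.64 on NDF arrays. Its groups overlapped narrowly, since CAF replicate 3 was below NDF replicate 1 (difference 0.95, adjusted p = 0.433).

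Among the transcription factor genes 1 of 3 rose. Ikzf1 encodes Ikaros, a zinc finger factor of lymphoid and other blood cell development. It read 6.02, 7.68 and 6.98 on CAF arrays, against 3.55, 2.84 and 3.16 on NDF arrays, a rise of 3.71 ± 0.43 or 13.1-fold (adjusted p = 0.0252). Its other probe set, at 3.79 in CAF and 3.93 in NDF, differed by -0.15, and the mean of both by 1.78. Irf8, an interferon regulatory factor of monocytes and dendritic cells, was at 5.12 ± 0.21 in CAF and 4.14 ± 0.22 in NDF with no overlap (SD, n = 3 each, difference 0.97, adjusted p = 0.146). The other Irf8 probe set overlapped between the groups, with a difference of 0.27. Spi1, which encodes the myeloid master factor PU.1, read 4.65, 4.34 and 6.03 on CAF arrays and 4.19, 4.70 and 4.45 on NDF arrays. Its groups overlapped (difference 0.56, adjusted p = 0.827), and without CAF replicate 3 the difference was 0.04.

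Since PU.1 acts at promoters of myeloid genes, the 250 bases before the annotated starts were read from the RefSeq promoter table (GRCm38.p6), which holds 36 starts of 30 of the genes. The most upstream start is shown for the 4 genes that rose and are in the table, and for Cd163 and Lyz2, the macrophage genes that varied most among the arrays. Sequences run 5′ to 3′ on the gene's strand, and capitals mark GAGGAA, the core of the PU.1 motif, on either strand.
Ptprc, chr1:138175306-138175555, minus strand: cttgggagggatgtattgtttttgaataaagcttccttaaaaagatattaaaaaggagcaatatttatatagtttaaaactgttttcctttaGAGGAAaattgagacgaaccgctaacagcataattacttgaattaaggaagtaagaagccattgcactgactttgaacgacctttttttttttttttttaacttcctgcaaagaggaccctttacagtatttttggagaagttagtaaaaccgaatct
Cd53, chr3:106790150-106790399, minus strand: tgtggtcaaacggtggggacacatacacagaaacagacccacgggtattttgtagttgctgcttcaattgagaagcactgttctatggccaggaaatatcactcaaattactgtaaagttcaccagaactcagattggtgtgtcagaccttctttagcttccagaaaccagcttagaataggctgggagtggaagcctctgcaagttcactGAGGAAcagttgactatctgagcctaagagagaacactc
Plek, chr11:17008719-17008968, minus strand: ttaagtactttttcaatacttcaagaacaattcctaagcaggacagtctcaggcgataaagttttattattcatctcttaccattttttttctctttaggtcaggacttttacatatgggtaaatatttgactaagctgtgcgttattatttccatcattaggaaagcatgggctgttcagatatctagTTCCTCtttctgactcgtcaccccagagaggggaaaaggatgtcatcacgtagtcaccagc
Ikzf1, chr11:11685675-11685924, plus strand: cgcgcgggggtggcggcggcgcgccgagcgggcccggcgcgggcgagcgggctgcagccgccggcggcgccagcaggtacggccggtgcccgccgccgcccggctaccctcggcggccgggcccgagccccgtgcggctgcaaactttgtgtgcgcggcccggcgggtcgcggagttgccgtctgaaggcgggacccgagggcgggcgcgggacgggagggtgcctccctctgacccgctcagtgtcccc
Cd163, chr6:124304401-124304650, plus strand: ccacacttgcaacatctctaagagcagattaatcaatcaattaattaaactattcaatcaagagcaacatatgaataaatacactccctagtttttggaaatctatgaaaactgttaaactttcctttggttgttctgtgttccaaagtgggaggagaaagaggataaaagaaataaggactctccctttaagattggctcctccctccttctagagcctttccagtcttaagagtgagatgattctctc
Lyz2, chr10:117282273-117282522, minus strand: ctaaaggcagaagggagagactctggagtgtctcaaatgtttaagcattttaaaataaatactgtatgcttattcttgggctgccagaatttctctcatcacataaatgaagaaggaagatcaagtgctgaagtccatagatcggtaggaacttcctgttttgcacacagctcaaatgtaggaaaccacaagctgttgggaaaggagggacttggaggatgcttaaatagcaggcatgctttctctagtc
The motif was found 158 bases before the Ptprc start, 39 before the Cd53 start and, as its reverse complement TTCCTC, 61 before the Plek start. No match lay in the windows of Ikzf1, Cd163 and Lyz2. Over the 36 windows 33.3% held at least 1 match, beside 23.3% of all 32851 windows in the table, so a match is common and marks no site by itself. Base composition varied among the windows shown: the Ikzf1 window has 82.0% G and C with 44 CpG pairs, and the Ptprc window 31.6% with 4. Both genes have a second start, so these values and the Ptprc match belong to the start shown. The second window of Ikzf1 has 47.6% with 1 pair and that of Ptprc 36.8% with 2, and neither holds a match. The median window held 47.2% G and C for the listed genes and 52.4% over the table.

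The 4 phagocyte oxidase genes had a median difference of 1.04 and none passed. Ncf4, the cytosolic subunit p40phox, came nearest. It read 5.22, 6.07 and 5.55 on CAF arrays, against 3.52, 4.00 and 3.33 on NDF arrays, and the lowest CAF array was 1.22 above the highest NDF array. The difference was 2.00 ± 0.29 (adjusted p = 0.0503). Ncf1, the organising subunit p47phox, read 4.12, 5.28 and 5.18 on CAF arrays and 3.90, 4.14 and 3.82 on NDF arrays. Its groups overlapped by 0.02 units (difference 0.91, adjusted p = 0.471), and its 2 other probe sets, both near 3, differed by 0.08 and 0.17.

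Cybb encodes the catalytic membrane subunit gp91phox. It read 5.02, 4.70 and 6.84 on CAF arrays and 5.29, 3.88 and 3.85 on NDF arrays, with NDF replicate 1 above CAF replicates 1 and 2 (difference 1.18, adjusted p = 0.699). A second Cybb probe set differed by 1.72 with no overlap, at 4.86 in CAF and 3.14 in NDF, and the other by 0.07. Cyba, the p22phox subunit that pairs with several NADPH oxidases and is made by many cell types, read 7.65, 7.00 and 7.67 on CAF arrays and 6.89, 7.28 and 7.16 on NDF arrays. Its groups overlapped (difference 0.33, 95% interval -0.26 to 0.92, adjusted p = 0.815). Of 8 other measured NADPH oxidase genes none was called or had an unadjusted p under 0.05, and 6 had lower means in CAF. Their median was -0.16, and Rac1, the widely expressed relative of Rac2, differed by -0.17 (adjusted p = 0.928). The dual oxidase gene Duox1, the oxidase organiser gene Noxo1 and the dual oxidase maturation factor gene Duoxa2 differed by 0.27, -0.44 and -0.16.

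Macrophage surface genes numbered 11, with a median of 1.24, and 1 of them rose. Ms4a6d, a membrane-spanning 4-domain protein gene of macrophages, had the smallest p of the 40 genes. It read 7.08, 7.98 and 7.46 on CAF arrays, against 4.01, 3.81 and 3.83 on NDF arrays, a rise of 3.62 ± 0.26 or 12.3-fold (adjusted p = 0.00648). The probe set used has a suffix for matches to related transcripts. Another Ms4a6d probe set without it differed by 3.04 (adjusted p = 0.0346 over all probe sets), a dim one near the floor differed by 0.17, and the mean of all 3 by 2.28 (adjusted p = 0.00826). The related genes Ms4a7 and Ms4a6c differed by 1.93 and 1.04 (adjusted p = 0.371 and 0.204), with no overlap. The second probe set of each overlapped, at -0.03 for Ms4a7 and 0.16 for Ms4a6c, and the means of both were 0.95 and 0.60.

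The scavenger and lectin receptor genes Cd163, Mrc1 and Msr1 did not pass and varied widely inside the groups. Cd163, the haemoglobin scavenger receptor, read 6.19, 6.27 and 10.59 on CAF arrays and 5.93, 3.55 and 3.54 on NDF arrays. CAF replicate 3 was 4.36 above the mean of the other CAF samples, and NDF replicate 1 was 2.39 above the mean of the other NDF samples, so the groups were separated by only 0.26. The difference of 3.34 ± 1.28 had an adjusted p of 0.505 and was 1.89 without CAF replicate 3. Mrc1, the mannose receptor CD206, read 7.93, 8.72 and 9.83 on CAF arrays and 7.67, 5.40 and 5.69 on NDF arrays, again separated by 0.26 (difference 2.58 ± 0.71, adjusted p = 0.279). Msr1, scavenger receptor A, differed by 2.10 ± 0.49 (adjusted p = 0.181). Its 3 other probe sets gave 0.96, 0.31 and -0.08.

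The classical macrophage markers Adgre1, an adhesion receptor, and Cd68, a lysosomal glycoprotein, stood out on 1 array. Adgre1 read 4.08, 3.75 and 5.79 on CAF arrays and 3.70, 2.87 and 3.33 on NDF arrays, and Cd68 read 6.06, 6.11 and 7.95 on CAF arrays and 5.60, 5.50 and 5.62 on NDF arrays. For both only CAF replicate 3 was far from the normal samples, and without it the differences of 1.24 and 1.13 were 0.62 and 0.51 (adjusted p = 0.581 and 0.595 with it, 0.427 and 0.243 without it). Cd33, a sialic acid-binding lectin gene, differed by 1.07 (adjusted p = 0.271) with no overlap. Cx3cr1, the fractalkine receptor of monocytes and many resident macrophages, read 5.01, 5.33 and 5.67 on CAF arrays and 5.91, 4.69 and 5.27 on NDF arrays (difference 0.05, 95% interval -0.77 to 0.86, adjusted p = 0.988). The scavenger receptor gene Marco differed by -0.09 (95% interval -0.56 to 0.37, adjusted p = 0.953), and the 2 probe sets of each of these 2 genes differed in sign.

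Macrophage effector genes had a median difference of 2.69, and all 4 showed no overlap, although none passed. Alox5ap, the protein that presents arachidonic acid to 5-lipoxygenase in leukotriene synthesis, read 6.47, 7.56 and 8.22 on CAF arrays, against 4.92, 4.16 and 4.08 on NDF arrays (difference 3.03 ± 0.47, adjusted p = 0.0613). Without CAF replicate 1 its adjusted p was 0.0329. Lyz2, the myeloid lysozyme, which has a near-identical copy Lyz1 that hybridisation may not separate, read 9.26, 9.32 and 11.46 on CAF arrays and 7.78, 5.86 and 5.84 on NDF arrays. The difference was 3.52 ± 0.76 (adjusted p = 0.151). Mpeg1, the pore-forming protein of macrophages perforin-2, differed by 2.34 ± 0.40 (adjusted p = 0.0815). Without CAF replicate 1 its adjusted p was 0.0401, and without CAF replicate 3 it was 0.0487. Slc11a1, the phagosomal metal transporter NRAMP1, read 5.73, 6.26 and 6.30 on CAF arrays and 5.23, 5.34 and 4.96 on NDF arrays, the smallest difference of the 4 at 0.92 (adjusted p = 0.212).

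Dendritic cell markers did not move together. Cd83, a surface protein of mature dendritic cells and activated lymphocytes, read 8.61, 9.22 and 10.21 on CAF arrays, against 7.88, 6.53 and 6.84 on NDF arrays (difference 2.26 ± 0.50, adjusted p = 0.161). Cd207, which encodes langerin, read 3.49, 3.83 and 3.41 on CAF arrays and 3.75, 3.68 and 3.29 on NDF arrays, all below the median probe set of 4.84. Its difference was 0.01 (95% interval -0.50 to 0.52, adjusted p = 0.997). The C-type lectin gene Cd209a, a relative of DC-SIGN, was also at a low level on all arrays and differed by -0.11 (95% interval -0.67 to 0.45, adjusted p = 0.956). A mean of 4.84 or more, the median probe set, was reached by 27 of the 40 genes, 16 of them with an NDF mean below it, and dim genes are compressed on this scale.

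The arrays at which the genes peaked differed between the role groups. Of 18 macrophage and dendritic cell genes, 15 were highest among CAF samples in replicate 3, as were 48.7% of all genes. Of the same 18, 14 were highest among NDF samples in replicate 1, against 33.0% of all genes. Of 18 pan-leukocyte genes, the membrane, signalling, actin and transcription factor groups together, 10 were highest in CAF replicate 2, against 21.0% of all genes, and 8 in NDF replicate 1. The median excess of CAF replicate 3 over the mean of the other CAF samples was 1.05 for the macrophage and dendritic genes and 0.34 for the pan-leukocyte genes, beside 0.12 over all genes. The matching excess of NDF replicate 1 was 0.62 and 0.31, beside -0.02 over all genes. These are descriptions of single arrays, without a test.

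**Figure D2:**
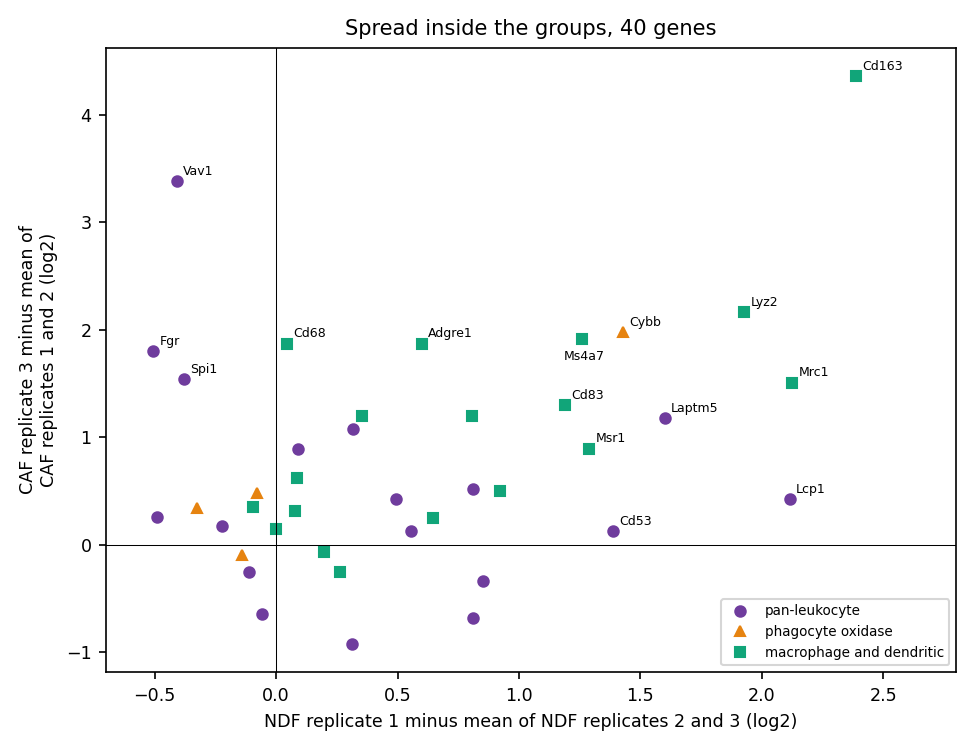
Each of 40 genes by the excess of NDF replicate 1 over the mean of the other NDF samples (x, log2) and of CAF replicate 3 over the mean of the other CAF samples (y, log2), coloured by role. Cd163 lies farthest out, at 2.39 and 4.36, and Vav1 is high on the y axis only, at 3.38.

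With CAF replicate 3 and NDF replicate 1 both left out, 10 of the 40 genes passed with CAF higher, against 0.588% of all genes, and 5 of the 10 were among the 7 above. The others were Cd163, Lyz2, Mrc1, Ms4a7 and Cd83, at 2.69, 3.44, 2.78, 1.71 and 2.22 (adjusted p = 0.0112, 0.00567, 0.0345, 0.0317 and 0.0451). Ikzf1 and Plek lost their calls, at 3.85 and 3.39 (adjusted p = 0.0605 and 0.0643). Each group then holds 2 arrays. Over all probe sets NDF replicate 1 did not stand apart, and the pair was chosen with the high values of these genes on both arrays known. The 5 added genes each lay over 1 unit above the mean of the other samples of the group on both arrays. The choice of arrays thus bears on which genes passed, and these calls support nothing further.

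**Figure D3:**
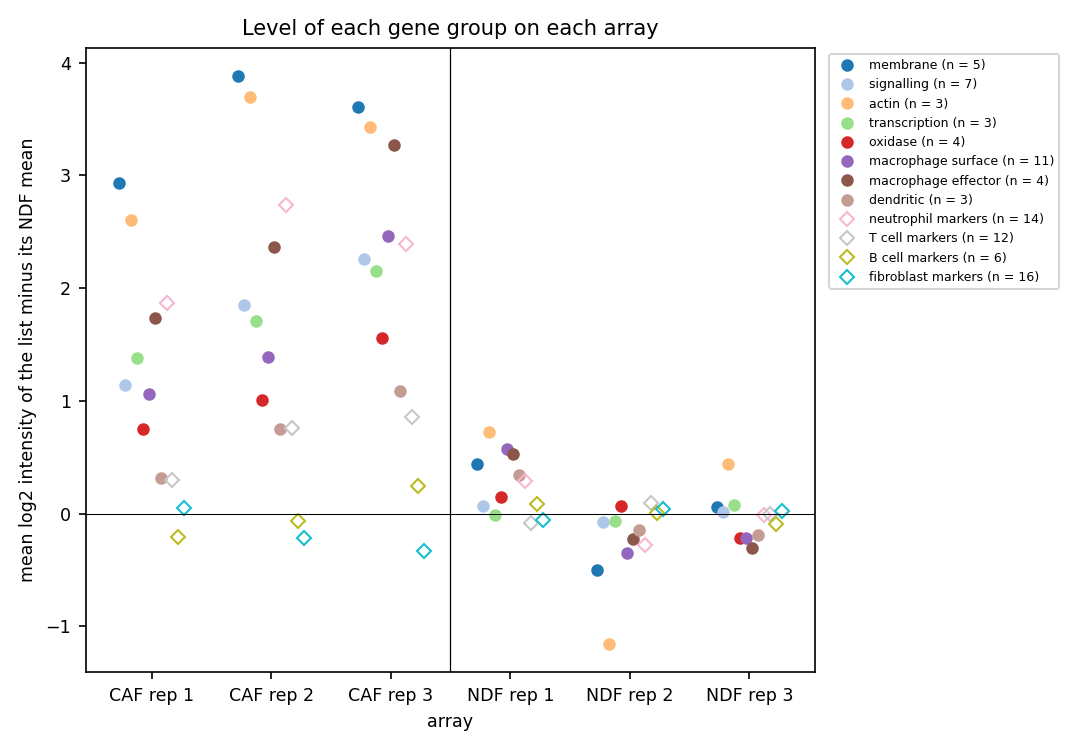
Mean log2 intensity of each gene group on each array minus the group's mean over the NDF arrays, with circles for role groups of the 40 genes and diamonds for markers of other cells. Membrane and actin genes lie 2.6 units or more above the NDF mean on every CAF array, while fibroblast and B cell markers stay within 0.4 units of it.

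Probe sets of 1 gene often differed in size. Of the 71 probe sets, 31 were not the one used for its gene, and 40 had every CAF array above every NDF array, against 5.69% of all 45037 probe sets. For 21 genes there were several, and the one used has the highest mean over both groups, a choice that favours probe sets with high CAF values. When all were tested on their own, 0.144% were called higher in CAF, 7 of them from the list: both brighter ones of Ms4a6d and 1 each of Ptprc, Ikzf1, Plek, Tyrobp and Cd52.

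**Figure D4:**
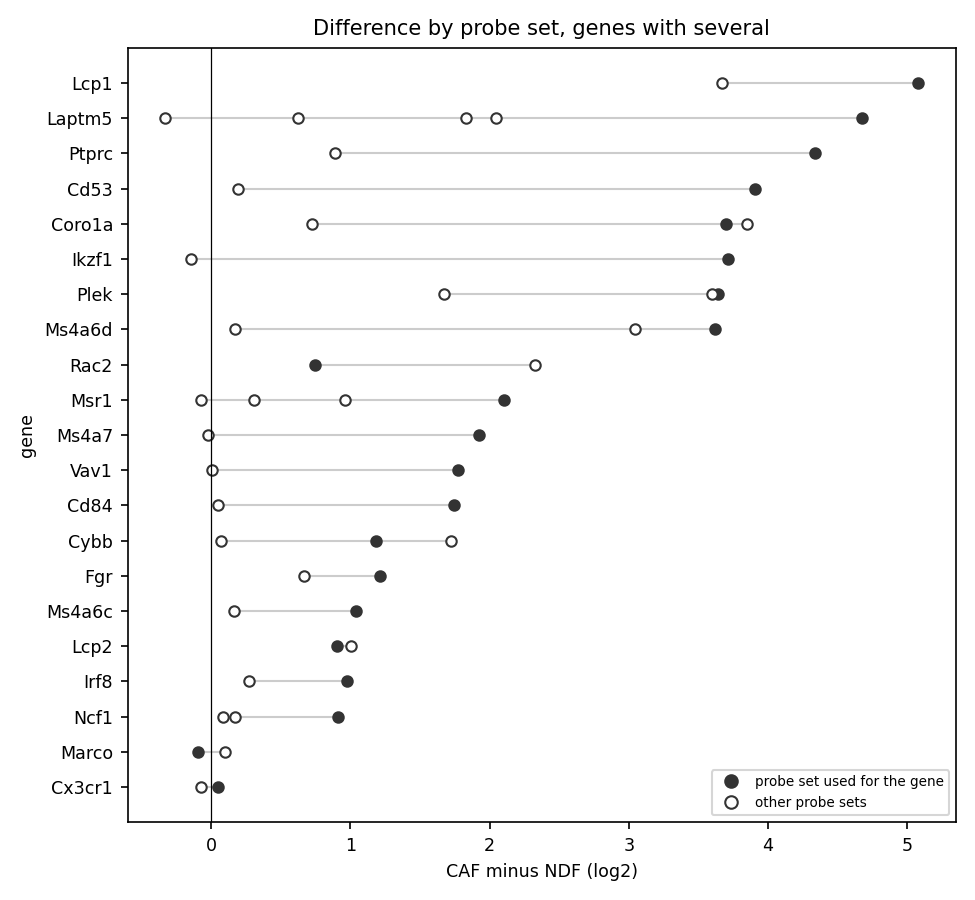
Difference between CAF and NDF (x, log2) for each probe set of the 21 genes with several, filled for the one used and open for the others. Plek and Coro1a have a second probe set within 0.2 units of the one used, while those of Ikzf1 and Cd53 differ by over 3 units.

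Other leukocyte genes were listed by their known function. Of 27 measured genes of leukocyte signalling and adhesion outside the 41, 20 had every CAF array above every NDF array (6.78% of all genes). The median difference was 1.07, and no gene fell and 1 rose. It was Pik3cg, the phosphoinositide kinase gamma subunit, at 2.27 ± 0.29 (adjusted p = 0.0333). The phosphatase SHIP1 gene Inpp5d and the adaptor Sla differed by 2.00 and 2.99 (adjusted p = 0.0633 and 0.0934). Of 24 other macrophage genes 1 rose, with a median of 0.98. Every CAF array was above every NDF array for 13 of the 24, against 6.78% of all genes. Every CAF array was below for 1, the receptor kinase gene Mertk at -0.54 (adjusted p = 0.673), against 8.66% of all genes. The gene that rose was the endotoxin co-receptor Cd14, at 4.03 (adjusted p = 0.0252), while the protease Ctss and the lectin Clec4n differed by 3.65 and 2.40 (adjusted p = 0.0503 and 0.102). Neither Pik3cg nor Cd14 passed when any 1 NDF array was left out, nor did Pik3cg without CAF replicate 1 or 2.

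Markers of single leukocyte types were uneven on the same arrays. Of 14 neutrophil markers 3 rose, Clec4d, S100a8 and Trem1, at 6.47, 6.04 and 4.14 (adjusted p = 0.00982, 0.0304 and 0.0304), with a median of 2.16. Clec4d and Trem1 did not pass when any 1 NDF array was left out, and S100a8 did not pass without CAF replicate 1 or 2 or NDF replicate 2 or 3. Every CAF array was above every NDF array for 8 of the 14, against 6.78% of all genes. Every CAF array was below for 1, Mpo, against 8.66% of all genes. Mpo was dim, at means of 3.21 in CAF and 3.39 in NDF, and differed by only -0.18 (adjusted p = 0.854). Of 12 T cell markers 1 rose, Cd3g at 2.38 (adjusted p = 0.0461), with a median of 0.08, and Cd3g did not pass when CAF replicate 2 or any 1 NDF array was left out. For 4 T cell markers every CAF array was above every NDF array, against 6.78% of all genes. For 2, Zap70 and Cd8b1, every CAF array was below, against 8.66% of all genes, and Zap70 differed by -0.47 (adjusted p = 0.556). None of 6 B cell markers had an unadjusted p under 0.05 by limma, and Blk, the nearest, differed by 0.45 (adjusted p = 0.712). Of 9 mast cell markers none passed, with a median of 0.64. An unadjusted p under 0.05 with CAF above was found for 4 of the 9, against 4.93% of all genes. Which cells gave the signal of genes that several leukocyte types share, such as Ptprc, Tyrobp or Coro1a, was not tested.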

How the data were processed

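The deposited values are log2 intensities of 45101 probe sets. GCOS and RMA are the tools in the submitters' processing notes, and no version is given in the sources used here. RMA subtracts background, quantile normalises arrays and summarises probes, so low values are compressed. Gene names came from the platform annotation, in which 34945 probe sets name 1 gene, and each of 18193 genes is represented by its brightest probe set (mean of all 6 arrays). The CAF and NDF groups were fitted in R 4.3.3 by limma 3.58.1, using lmFit and eBayes with 1 prior variance for all genes, two-sided tests, group as the only term and Benjamini-Hochberg adjustment over all genes at a threshold of 0.05. Standard errors and 95% intervals are the moderated ones. Precision is limited by having 3 arrays in each group.

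The listed genes, role groups, other gene lists, tests and alternatives were chosen with earlier results of these data known. All 41 genes are named. Array values are given for genes past the threshold, the oxidase genes, and the genes with the smallest p and the smallest difference in each role group, and for Lcp1, Fgr, Vav1, Cd163, Mrc1, Adgre1, Cd68 and Lyz2, chosen after their values were seen. The 3 genes with the smallest p are named for the other leukocyte signalling, macrophage, NADPH oxidase and neutrophil lists. For T and B cell markers only the 1 with the smallest p is named. Mast cell, keratinocyte and endothelial markers are given as lists only, as are fibroblast markers apart from Pdgfra. Rac1, Mpo, Zap70, Cd8b1 and Mertk were added after their values were seen. In simulated data for the CAF and NDF comparison, with 18193 genes, the procedure recovered 8% of genes changed by 1 log2 unit and 86% of those changed by 2. It also made 13 false calls. The simulated errors were independent and normal, with no array that stood apart as CAF replicate 3 did. The recovered shares therefore may not hold for the listed genes. Same-numbered samples were checked for pairing and are not treated as pairs. Alternatives covered a replicate block, normalisation, filters, the choice of probe set, the variance prior, array weights and left-out arrays. Plots were made in Python 3.11.15 using matplotlib 3.10.9.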

Additional observations from a re-analysis of the deposited data

How the results depend on the processing

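The 7 genes called of the 40 became 2 with a replicate block, 12 with an intensity trend, 16 with array quality weights, 13 at an adjusted p under 0.1, and 0 to 10 when single arrays were left out. The genes called over the whole table, 94, became 20, 155, 438 and 198 in those settings and 5 to 156 without single arrays. The array quality weights were 2.56, 0.82 and 0.17 for CAF replicates 1, 2 and 3, so CAF means there rest mostly on replicate 1. With the replicate block Ms4a6d and Ptprc were the calls left. Deviations of same-numbered samples from their group means correlated at -0.15, 0.11 and -0.01 over all genes. This check cannot show whether same-numbered samples were handled together. The counts at an unadjusted p under 0.05 and of groups that do not overlap stayed within 1.5 times of the reported ones in all settings, and no listed gene was called lower in any. The median difference, 1.76, was 2.58 with a filter at the median probe set and 1.10 with the mean of all probe sets. It was 1.20 without probe sets ending in _a_at, _s_at or _x_at, and 1.23 to 2.02 without single arrays. The filter uses the mean over both groups and left 27 genes, 16 of which have an NDF mean below it, so genes high in CAF passed it more easily and the 2.58 supports nothing. The cause of the other shifts was not tested.

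Signs turned for 6 of the 40 genes, all of them uncalled. Laptm5 was -0.33 without probe sets ending in _a_at, _s_at or _x_at, where its dim probe set is the 1 left. Spi1 was -0.0826 without CAF replicate 3 and NDF replicate 1 together. Cd209a was 0.0766 without CAF replicate 1, -0.3157 without CAF replicate 3 and as low as -0.35 with array quality weights. Cd207 was -0.0001 on quantile normalisation, -0.01 with equal medians, -0.12 without CAF replicate 2 and -0.1333 without NDF replicate 3. It was 0.0935 without NDF replicate 1 and up to 0.1771 without that array and CAF replicate 3 together. Marco was 0.0022 with the mean of its probe sets and 0.0308 without CAF replicate 2. It was -0.2119 without CAF replicate 3 and as low as -0.2436 without that array and NDF replicate 1 together. Cx3cr1 was -0.0153 with the mean of probe sets, -0.14 with array weights, -0.12 without CAF replicate 3, -0.25 without NDF replicate 2 and up to 0.3544 without NDF replicate 1. Outside the list Noxo1 was 0.13 with array weights, 0.0952 without CAF replicate 3, 0.0345 without it and NDF replicate 1, and as low as -0.8266 without CAF replicate 1. Signal over background was not analysed here, so for dim genes such as Cd207 and Cd209a a change could be missed.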
